A study of Mus musculus with 12 samples.

Results

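Genes for the synthesis, movement and esterification of cholesterol, and for the control of the transcription factor SREBP2, were examined in the livers of 12 female mice. Of 30 such genes, chosen by symbol, 26 were measured through a transcript cluster annotated to that gene alone, among 22180 genes tested in all. Acat2, Soat1, Soat2 and Idi1 were not analysed here: the first 3 were not listed in the annotation used, and the cluster of Idi1 was shared with another symbol. Of these C57Bl/6 females, aged 12 to 14 weeks, 6 were wild-type (WT) and 6 carried a disrupted Ppara gene (Ppara KO), and each liver gave 1 Affymetrix MoGene 2.0 ST array. Ppara encodes PPARα, a nuclear receptor that senses fatty acids. The labels give no treatment, feeding state, collection time or array batch, and do not say how the knockout allele was made. The question was which liver transcripts differ when Ppara is disrupted.

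Cholesterol is made from acetyl-CoA through mevalonate, farnesyl diphosphate, squalene and lanosterol. The genes of these steps are switched on by SREBP2, which is held in the endoplasmic reticulum with its escort protein SCAP by the INSIG proteins while sterol is plentiful. When sterol falls, SCAP carries SREBP2 to the Golgi, where it is cut, and the released fragment enters the nucleus and acts at promoters together with NF-Y, a factor that binds the letters CCAAT. The liver makes cholesterol by this route and also takes it up from lipoproteins.

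The 150 bases before the RefSeq start site are shown for 5 genes: Hmgcs1, Cyp51 and Msmo1, enzymes whose values were highest in the same pair of Ppara KO animals, Srebf2, which was low in the knockout, and Tmem97, which was high in it. They are written 5′ to 3′ in the direction of the gene, from RefSeq on build GRCm38.p6, with CCAAT or its reverse complement ATTGG and the sterol regulatory element core TCACNCCAC in capitals. Hmgcs1 is at chr13:119690201-119690350 (plus strand), Cyp51 at chr5:4104698-4104847 (minus), Msmo1 at chr8:64733579-64733728 (minus), Srebf2 at chr15:82147119-82147268 (plus) and Tmem97 at chr11:78550736-78550885 (minus).
Hmgcs1: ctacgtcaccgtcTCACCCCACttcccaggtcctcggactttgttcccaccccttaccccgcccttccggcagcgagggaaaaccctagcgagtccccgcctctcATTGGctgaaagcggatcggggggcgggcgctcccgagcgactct
Cyp51: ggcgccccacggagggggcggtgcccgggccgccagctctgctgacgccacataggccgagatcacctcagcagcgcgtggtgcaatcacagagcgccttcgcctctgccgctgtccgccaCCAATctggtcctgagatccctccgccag
Msmo1: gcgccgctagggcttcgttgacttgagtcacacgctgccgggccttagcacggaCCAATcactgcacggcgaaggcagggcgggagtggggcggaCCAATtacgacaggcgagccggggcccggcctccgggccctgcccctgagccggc
Srebf2: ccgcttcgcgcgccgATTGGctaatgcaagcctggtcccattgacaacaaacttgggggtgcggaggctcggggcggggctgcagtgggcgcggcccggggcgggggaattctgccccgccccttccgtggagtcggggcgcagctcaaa
Tmem97: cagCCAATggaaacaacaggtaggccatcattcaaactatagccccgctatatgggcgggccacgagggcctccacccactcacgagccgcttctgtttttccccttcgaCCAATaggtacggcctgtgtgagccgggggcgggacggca

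The CCAAT box is the shared feature of these windows. RefSeq promoters were held for 21 of the 26 measured genes (not for Fdps, Fdft1, Sqle, Npc1 and Stard4), and 20 of the 21 had CCAAT on either strand within 250 bases before a listed start, Scap being the exception. Over all 27025 genes with a RefSeq promoter, 37.5% had it, and over their 32851 promoters 33.8%. The box occurred more than once before a single start in 13 of the 21 genes, against 11.5% of all genes. The core TCACNCCAC was found in 1 of the 21, Hmgcs1, 137 bases before its start, against 1.22% of all genes. The full 10-base sterol regulatory element, which contains that core and so overlaps it, was found in 0 of the 21 and in 0.0814% of all genes. The E-box CACGTG, which clock factors bind, was found in 5 (Hsd17b7, Sc5d, Dhcr7, Scap and Insig1), against 6.86% of all genes. The PPAR response element, a direct repeat of AGGTCA with 1 base between, was found in 0, against 0.0407% of all genes. Each motif was searched on both strands. Only these letters were searched, so sites that depart from them were not counted. For motifs as rare over all genes as the last element and repeat, 0 of 21 does not show that such sites are lacking. These are matches of letters in 1 window, and binding was not measured.

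In Ppara KO livers 9 of the 26 genes fell and 1, Tmem97, rose (limma, Benjamini-Hochberg adjusted p under 0.05 over all 22180 genes). Among all genes tested 10.2% were called, 5.77% lower and 4.46% higher. At an unadjusted p under 0.05, 22.9% of all genes passed, 11.7% lower and 11.2% higher. The falls were Pmvk, Mvd, Fdps, Tm7sf2, Hsd17b7 and Dhcr7 among the enzymes and Srebf2, Scap and Insig2 among the control genes. The median difference of the 26 genes was -0.20 on the log2 scale, against 0.0090 over all genes. The changes were small: only Insig2 and Mvd moved at least 1.5-fold. The 6 WT values and the 6 Ppara KO values did not overlap for 5 of the 26 genes (19.2%), against 6.51% of all genes.

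**Figure D1:**
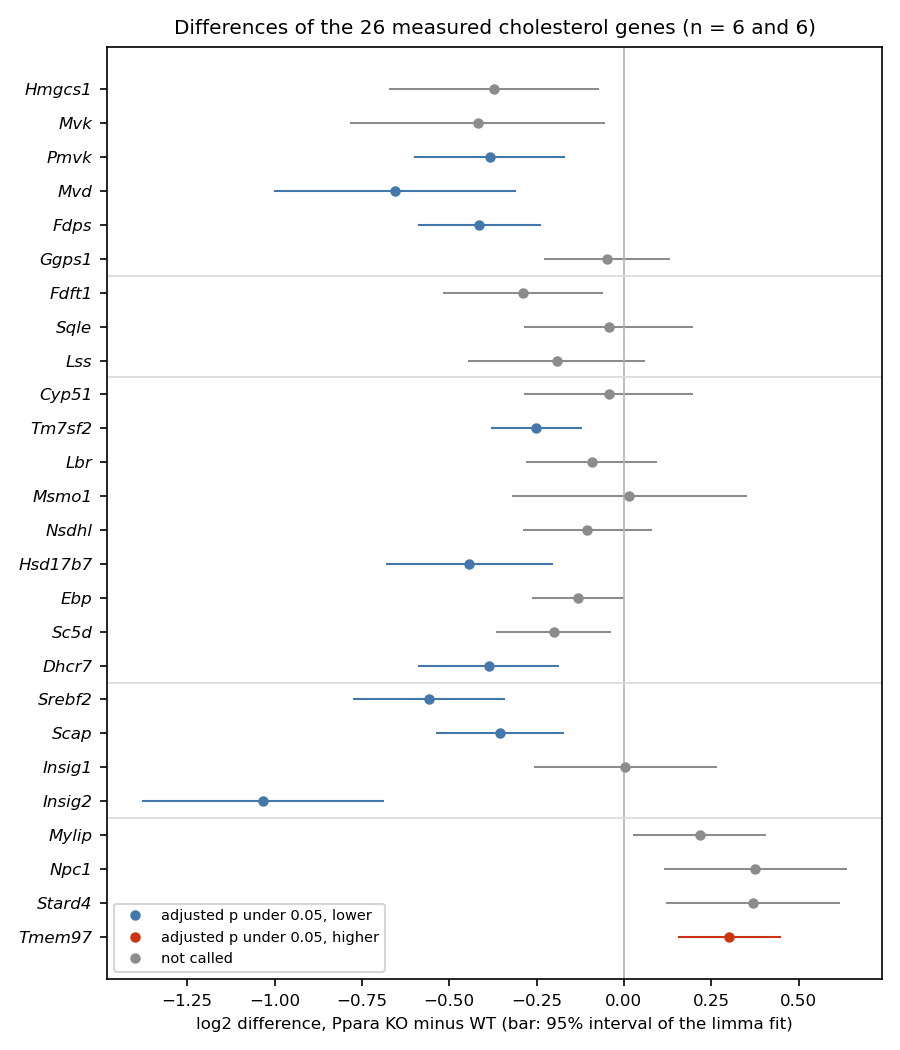
Log2 difference (Ppara KO minus WT) of the 26 measured genes with the 95% interval of the limma fit, 6 animals per genotype, in the order mevalonate steps, squalene and lanosterol, later sterol steps, SREBP2 control, and uptake and movement. Blue points fell and the red point rose at an adjusted p under 0.05. The 18 enzymes lie near or left of 0 and the 4 uptake and movement genes lie right of it, and Insig2 has the farthest point at -1.03.

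Of the 6 measured genes of the mevalonate steps, 3 fell and 0 rose by limma (all genes 5.77% lower and 4.46% higher). At an unadjusted p under 0.05 the counts were 5 and 0 (all genes 11.7% lower and 11.2% higher). Fdps, the synthase of farnesyl diphosphate, had log2 values of 9.39, 9.53 and 9.75 in WT (lowest, median and highest) and of 8.97, 9.10 and 9.34 in Ppara KO. Every Ppara KO animal was below every WT animal. The difference was -0.41 ± 0.083 (± SE, adjusted p 0.00460), a 1.33-fold fall. Mvd, the decarboxylase that makes isopentenyl diphosphate, had WT values of 6.64, 7.10 and 7.41 and Ppara KO values of 5.93, 6.41 and 6.95. Its groups overlapped through Ppara KO 4 alone, at 6.95. It fell 1.57-fold (difference -0.65 ± 0.16, adjusted p 0.0178). Pmvk, phosphomevalonate kinase, ran from 8.13 over 8.50 to 8.66 in WT and from 7.88 over 8.09 to 8.22 in Ppara KO. It fell by 0.38 (SE 0.10, adjusted p 0.0244), but the call ended without any 1 of 5 animals, WT 1, 3 or 6 or Ppara KO 3 or 5 (adjusted p between 0.0518 and 0.0588), and when all transcript clusters were tested (0.0534).

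Hmgcs1, the cytosolic HMG-CoA synthase at the entry of the pathway, did not pass the test (difference -0.37, 95% interval -0.67 to -0.07, adjusted p 0.119). Its 6 WT values lay between 10.76 and 11.15. Ppara KO 1 and 4 were at 10.85 and 11.05, inside that range, and Ppara KO 2, 3, 5 and 6 were at 10.10, 10.25, 10.59 and 10.51, all below it. Among single animals left out, Hmgcs1 passed only without Ppara KO 4, its highest knockout value (difference -0.47, adjusted p 0.0299). Leaving out the highest knockout value enlarges a fall by construction. Without Ppara KO 2, its lowest knockout value, the adjusted p was 0.229. Mvk, mevalonate kinase, had the same arrangement, with WT values of 6.28 to 6.97, Ppara KO 1 and 4 at 6.80 and 6.83, and the other 4 at 5.92, 5.97, 6.24 and 6.06 (difference -0.42, adjusted p 0.148). Ggps1, which makes geranylgeranyl diphosphate on a branch away from sterols, differed by -0.05 (95% interval -0.23 to 0.13).

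In the squalene and lanosterol steps limma called 0 of 3 genes, against 10.2% of all genes. At an unadjusted p under 0.05, 1 was lower, against 11.7% of all genes. Fdft1, squalene synthase, was at 10.16 to 10.51 in WT, at 10.30 and 10.38 in Ppara KO 1 and 4, and at 9.77, 9.87, 9.92 and 9.92 in the other 4. Its difference of -0.29 did not pass (adjusted p 0.111). Among single animals left out it passed only without Ppara KO 4, its highest knockout value (-0.36, adjusted p 0.0343). Without Ppara KO 2, its lowest, the adjusted p was 0.214. Lss, lanosterol synthase, was at 7.60 to 7.84 in WT and at 7.90 in both Ppara KO 1 and 4, above all WT animals. In Ppara KO 2, 3, 5 and 6 it was at 7.31, 7.28, 7.26 and 7.46, below all WT animals. The mean difference of Lss was -0.19 (95% interval -0.44 to 0.06), an average over values on both sides of the WT range. Sqle, squalene epoxidase, was at 8.85 and 8.89 in Ppara KO 1 and 4 and between 8.24 and 8.48 in the other 4, against 8.46 to 8.86 in WT (difference -0.04, 95% interval -0.29 to 0.20).

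Of 9 genes acting from lanosterol to cholesterol, 3 fell and 0 rose by limma, against 5.77% and 4.46% of all genes. At an unadjusted p under 0.05 the counts were 4 and 0, against 11.7% and 11.2% of all genes. Tm7sf2, a sterol C14 reductase, was at 9.21, 9.31 and 9.37 in WT and at 8.96, 9.03 and 9.18 in Ppara KO. The groups did not overlap, and the fall was 1.19-fold (difference -0.25 ± 0.061, adjusted p 0.0155). Here Ppara KO 4 had the lowest of all values. Dhcr7, the reductase of the last step, was at 9.37, 9.53 and 9.69 in WT and at 8.93, 9.13 and 9.43 in Ppara KO (difference -0.39 ± 0.095, adjusted p 0.0164). Hsd17b7, a 3-ketosteroid reductase, was at 8.63, 8.69 and 8.98 in WT and at 7.93, 8.31 and 8.67 in Ppara KO (difference -0.44 ± 0.11, adjusted p 0.0198). For both genes the ranges overlapped through 1 Ppara KO animal, number 1 for Dhcr7 and number 4 for Hsd17b7.

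The other 6 genes of this stretch did not pass. Cyp51, the lanosterol demethylase, was at 8.88 to 9.30 in WT, at 9.36 and 9.41 in Ppara KO 1 and 4, and at 8.89, 8.78, 9.01 and 8.93 in the others, so that only this pair exceeded every WT animal. Its difference was -0.04 (95% interval -0.29 to 0.20). Msmo1, a C4 methylsterol oxidase, spread widely in both genotypes, from 8.54 to 9.28 in WT and from 8.38 to 9.30 in Ppara KO, with Ppara KO 1 and 4 the highest of their group at 9.24 and 9.30. Its difference had a 95% interval of -0.32 to 0.35. Nsdhl, a sterol dehydrogenase, was highest in the same pair of knockout animals, at 10.52 and 10.42 (difference -0.10, 95% interval -0.29 to 0.08). Sc5d, a desaturase (difference -0.20, 95% interval -0.36 to -0.04, adjusted p 0.123), Ebp, a sterol isomerase (-0.13, adjusted p 0.218), and Lbr, the lamin B receptor, which is also a sterol C14 reductase (-0.09, adjusted p 0.601), did not have that pair on top.

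**Figure D2:**
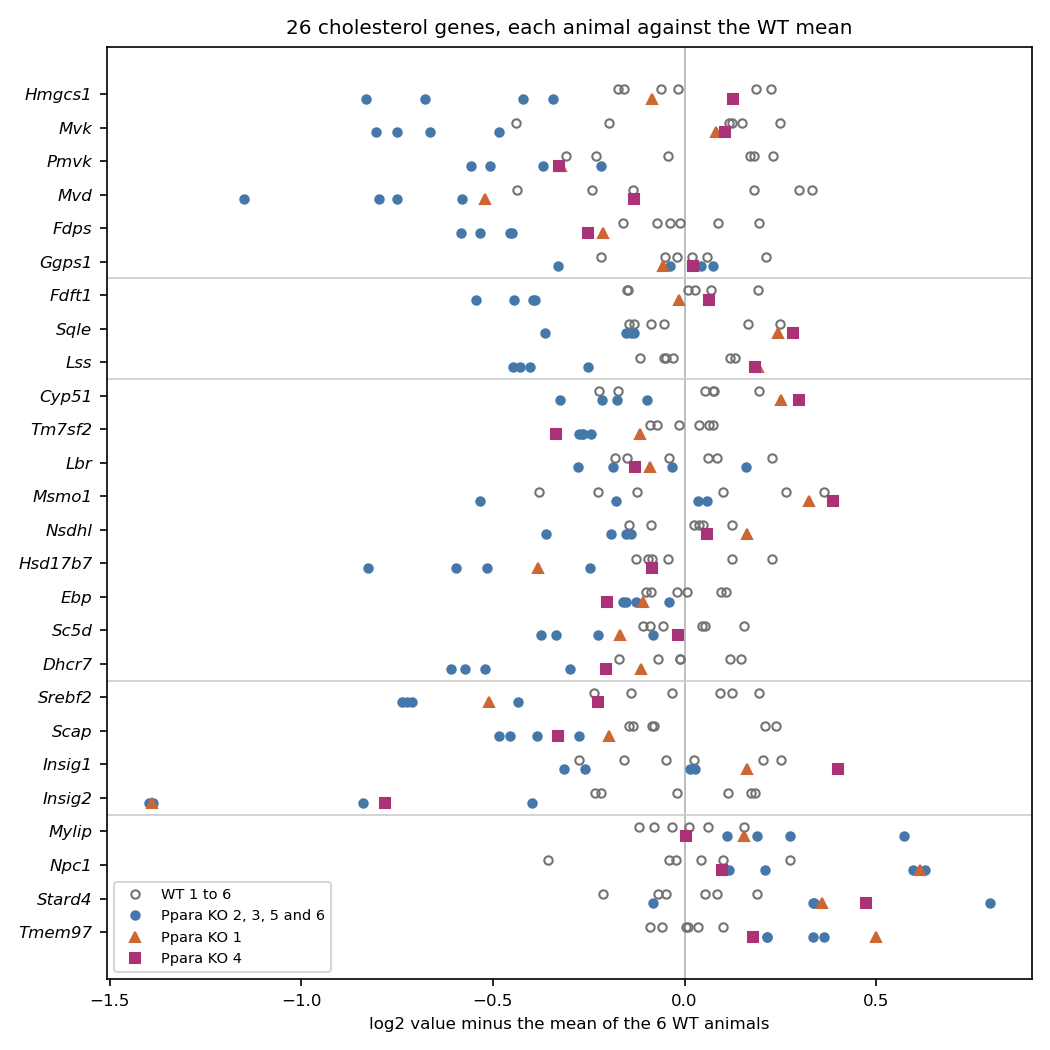
Log2 value of each animal minus the mean of the 6 WT animals for the 26 genes, with WT as open circles, Ppara KO 2, 3, 5 and 6 as blue points, Ppara KO 1 as a triangle and Ppara KO 4 as a square. The triangle and the square lie right of all blue points for 11 of the 18 enzymes, and not for Pmvk, Ggps1, Tm7sf2, Lbr, Hsd17b7, Ebp and Sc5d. Srebf2, Scap and Insig2 lie left of the WT mean in all 6 Ppara KO animals.

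Ppara KO 1 and 4 stood beside the other 4 knockout animals as follows. They held the highest and second highest of the 6 Ppara KO values for 12 of the 26 genes (46.2%), whereas this was so for 6.82% of all genes. These 12 were Hmgcs1, Mvk, Mvd, Fdps, Fdft1, Sqle, Lss, Cyp51, Msmo1, Nsdhl, Dhcr7 and Insig1, which is 11 of the 18 enzymes and 1 of the 8 other genes. In 9 of the 12, both animals reached at least the lowest WT value, and in 7 of the 12 the other 4 knockout animals were all below it. Both held for Hmgcs1, Mvk, Fdft1 and Lss. For Mvd, Fdps and Dhcr7 the other 4 were below the lowest WT value, but the pair did not both reach it. Of the 12 genes 3 were called, against 10.2% of all genes. The pair was singled out from these values, so the counts are a description and were not tested. Among 71 measured genes of neighbouring pathways the pair was on top for 4 (5.63%), and for 0 of 16 clock genes.

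Counted by animal, Ppara KO 5 was below the range of the 6 WT animals for 18 of the 26 genes, Ppara KO 2 and 6 for 17 and Ppara KO 3 for 16. Ppara KO 1 was below it for 10 and Ppara KO 4 for 7. Over all genes, the share below the WT range was between 17.2% and 20.4% in these 6 animals. With Ppara KO 1 and 4 included, so that this count is not independent of the ranks, the SD among Ppara KO animals exceeded that among WT animals in 22 of the 26 genes (84.6%), against 50.7% of all genes. The median SD of the 26 genes was 0.23 in Ppara KO and 0.15 in WT, against 0.16 in both genotypes over all genes.

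**Figure D3:**
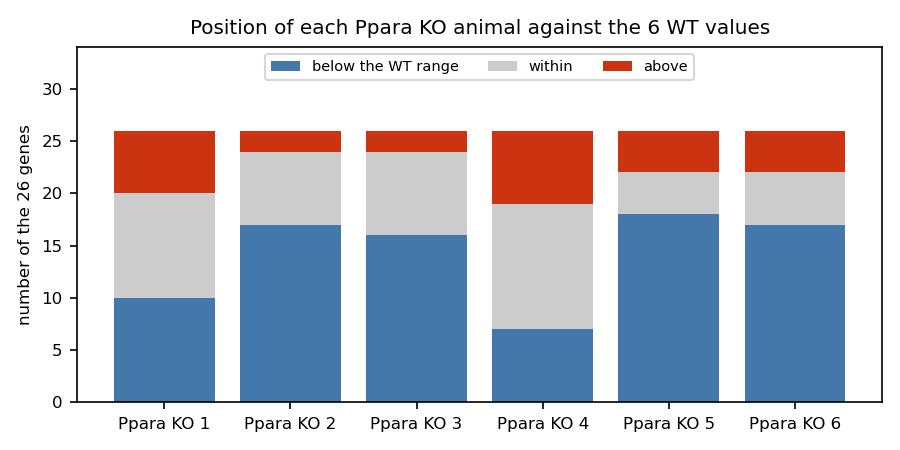
Number of the 26 genes whose value in each Ppara KO animal lay below (blue), within (grey) or above (red) the range of the 6 WT animals. Ppara KO 2, 3, 5 and 6 were below the range for 16 to 18 genes, Ppara KO 1 for 10 and Ppara KO 4 for 7.

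Among the 4 control genes, 3 fell and 0 rose, against 5.77% and 4.46% of all genes. The counts were the same at an unadjusted p under 0.05, against 11.7% and 11.2% of all genes. Srebf2, the gene of SREBP2 itself, had WT values of 8.18, 8.44 and 8.61 and Ppara KO values of 7.67, 7.80 and 8.19. Only Ppara KO 4, at 8.19, reached the lowest WT value. The fall was 1.47-fold (difference -0.56 ± 0.10, adjusted p 0.00245). Ppara KO 1 was at 7.90 for Srebf2, below every WT animal, while its values of Hmgcs1, Mvk, Fdft1, Lss and Cyp51 were within or above the WT range. Among the enzymes it was below every WT animal for Pmvk, Mvd, Fdps, Tm7sf2, Hsd17b7, Ebp and Sc5d.

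Srebf2 lies on chromosome 15, as does Ppara. In the gene order of RefSeq build GRCm38.p6, 71 tested genes lie between them, of which 14 (19.7%) were called, 10 lower and 4 higher. Of the 100 tested genes within 50 places of Ppara 23.0% were called, against 14.6% of the 845 tested genes of this chromosome and 10.2% of all genes. An effect of the knockout of Ppara and an effect of the chromosome segment around it cannot be told apart for Srebf2. Sqle lies on the same chromosome and was not called.

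Insig2, one of the proteins that hold SCAP in the endoplasmic reticulum, had the largest difference among the 26 genes. It was at 9.002, 9.28 and 9.42 in WT and at 7.84, 8.12 and 8.84 in Ppara KO, with no overlap. It fell 2.04-fold (difference -1.03 ± 0.16, adjusted p 8.28e-04), and under the 25 alternative settings and subsets of animals its adjusted p ran from 1.14e-04 to 0.0358. The 6 Ppara KO animals differed among themselves: 1, 3 and 6 were at 7.85, 7.85 and 7.84, 4 and 5 at 8.45 and 8.40, and 2 at 8.84. Ppara KO 1 was thus among the lowest for Insig2, and among the highest for 11 of the 18 enzymes. The clock gene Arntl was at 5.13, 5.28 and 5.04 in Ppara KO 1, 3 and 6. It was at 6.14 and 5.86 in 4 and 5, and at 7.01 in 2. Npas2, another clock gene, was at 4.05, 4.23, 4.23, 4.16, 4.63 and 4.12 in Ppara KO 1 to 6. A relation of Insig2 to the clock genes was not tested.

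Insig1, the other INSIG gene and itself a target of SREBP2, did not differ by more than the spread between animals. It was at 11.01, 11.28 and 11.54 in WT and at 10.98, 11.31 and 11.69 in Ppara KO, a difference of 0.0046 (95% interval -0.26 to 0.27), whose sign changed in 8 of the 25 alternatives. Within the knockout group Ppara KO 4 and 1 were highest, at 11.69 and 11.45, and 2 and 5 lowest, at 10.98 and 11.03. Scap was at 9.25, 9.31 and 9.63 in WT and at 8.91, 9.04 and 9.20 in Ppara KO, with no overlap (difference -0.35 ± 0.086, adjusted p 0.0152). A dimmer cluster of Scap differed by -0.069 ± 0.12, and with the mean of both clusters the difference was -0.21 and did not pass (adjusted p 0.184).

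**Figure D4:**
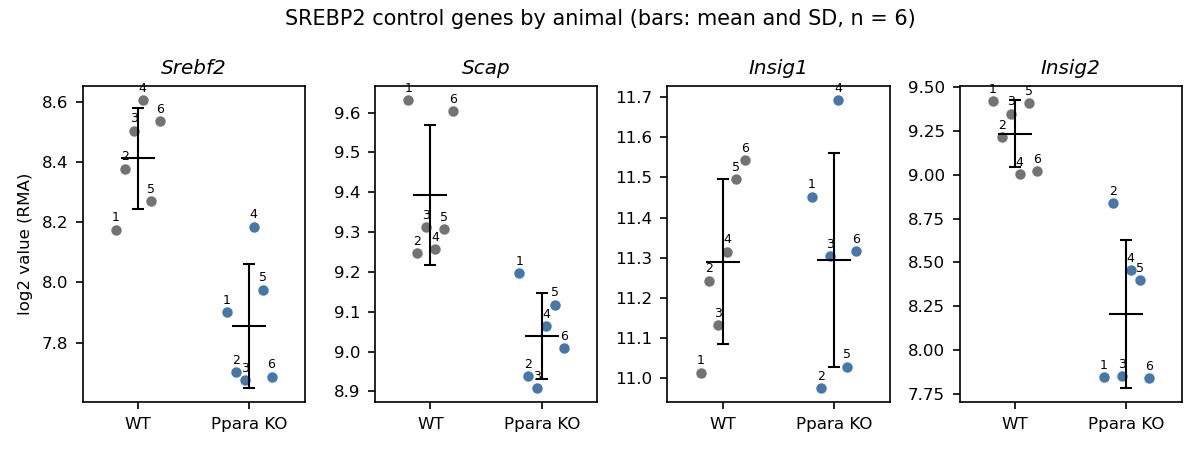
Log2 values of Srebf2, Scap, Insig1 and Insig2 by animal, numbered as in the labels, with the mean and SD of 6 animals per genotype. Scap and Insig2 do not overlap between the genotypes, Srebf2 overlaps through Ppara KO 4, and the values of Insig1 overlap in both.

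The 4 uptake and movement genes had positive differences. Of these, 0 fell and 1 rose by limma, against 5.77% and 4.46% of all genes. All 4 were higher at an unadjusted p under 0.05, as were 11.2% of all genes. Tmem97, a membrane protein of the endoplasmic reticulum and lysosome that binds the cholesterol transporter NPC1, was at 8.79, 8.88 and 8.98 in WT and at 9.06, 9.15 and 9.38 in Ppara KO. The groups did not overlap, and the rise was 1.23-fold (difference 0.30 ± 0.069, adjusted p 0.0110). Stard4, a cytosolic sterol carrier, had WT values of 7.07, 7.29 and 7.47 and Ppara KO values of 7.20, 7.63 and 8.08, and Ppara KO 2 was the only knockout animal within the WT range. Its difference of 0.37 missed the threshold (adjusted p 0.0584). Among single animals left out it passed only without Ppara KO 2, its lowest knockout value (adjusted p 0.00976).

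Npc1, which exports cholesterol from lysosomes, was at 8.64, 9.004 and 9.27 in WT and at 9.09, 9.40 and 9.62 in Ppara KO. Ppara KO 1, 5 and 6 exceeded every WT animal, and 2, 3 and 4 did not. The difference of 0.38 missed the threshold (adjusted p 0.0660). It passed without WT 1, its highest WT value (adjusted p 0.0457). It also passed without Ppara KO 2 or 4, its lowest knockout values (adjusted p 0.0481 and 0.0414). With any other single animal left out it did not pass, and without Ppara KO 6 the adjusted p was 0.138. A dimmer cluster of Npc1, with a mean log2 value of 3.68, differed by 0.28 ± 0.085. With the mean of both clusters the difference was 0.33 and passed (adjusted p 0.0289). When all transcript clusters were tested, the brighter cluster did not pass (adjusted p 0.121). Mylip, a ubiquitin ligase induced by LXR that sends lipoprotein receptors to degradation, differed by 0.22 (95% interval 0.03 to 0.41, adjusted p 0.150).

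Neighbouring pathways were read from lists that hold 83 further genes, 71 of them measured. Of these 11 fell (15.5%) and 8 rose (11.3%), against 5.77% and 4.46% of all genes. The same shares of all genes stand beside the calls in the lists that follow. A list of 12 measured genes covered the cutting of SREBP, vesicles leaving the endoplasmic reticulum and sterol-dependent degradation of proteins. Of these, limma called 3 higher and 0 lower (4 and 0 at an unadjusted p under 0.05, against 11.2% and 11.7% of all genes). Rnf139, a ubiquitin ligase of the endoplasmic reticulum, rose from a WT range of 7.98 to 8.21 to a Ppara KO range of 8.44 to 8.56 (difference 0.38 ± 0.060, adjusted p 8.28e-04). Erlin1, which restrains SREBP activation, rose by 0.40 (SE 0.11, adjusted p 0.0234), and Sec23a, a coat protein of vesicles leaving the endoplasmic reticulum, by 0.23 (SE 0.065, adjusted p 0.0361). In none of these 3 genes did the genotypes overlap. Sec24a, another coat protein of these vesicles, did not pass (difference 0.12, 95% interval -0.02 to 0.27, adjusted p 0.313).

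Sterol movement outside the 26 genes went both ways, with 4 of 15 genes lower and 3 higher (all genes 5.77% and 4.46%). Nceh1, a cholesterol ester hydrolase, fell 1.83-fold, with WT values of 6.63 to 7.04 and Ppara KO values of 5.71 to 6.18 (difference -0.87 ± 0.10, adjusted p 5.15e-05). Lrp1, a large lipoprotein receptor, fell by 0.31 (SE 0.062), Lipa, the lysosomal acid lipase, by 0.24 (SE 0.065) and Gramd1b, which moves sterol from the plasma membrane to the endoplasmic reticulum, by 0.31 (SE 0.092). Stard5, a sterol carrier related to Stard4, rose by 0.37 (SE 0.073, adjusted p 0.00460), without overlap. Vldlr, the VLDL receptor, rose by 0.77 (SE 0.17) and Ces1d, a carboxylesterase, by 0.46 (SE 0.13).

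Of 11 genes of sterol efflux and the LXR response, 1 fell, Pltp, a phospholipid transfer protein (difference -0.81 ± 0.12, adjusted p 4.34e-04), and 0 rose (3 and 0 at an unadjusted p under 0.05, against 11.7% and 11.2% of all genes). Scarb1, the HDL receptor, did not pass (difference -0.19, 95% interval -0.34 to -0.03, adjusted p 0.125). Of 6 sterol hydroxylases Cyp7b1, which acts on oxysterols, rose 2.23-fold (adjusted p 8.80e-07) and Cyp8b1 fell by 0.70 (SE 0.16, adjusted p 0.0102), while Cyp7a1 varied from 8.21 to 10.85 among WT animals (difference 0.29 ± 0.38). Of 11 genes of isoprenoid branches 1 fell, Fntb, a farnesyltransferase subunit (difference -0.39 ± 0.097), and 0 rose (4 and 1 at an unadjusted p under 0.05, against the same shares of all genes).

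Of 4 further SREBP2 targets measured, 2 fell and 0 rose. The falls were Acss2, an acetyl-CoA synthetase (difference -0.45 ± 0.12, adjusted p 0.0282), and Rdh11, a retinol dehydrogenase (-0.39 ± 0.098, adjusted p 0.0182). The counts were the same at an unadjusted p under 0.05, against 11.7% and 11.2% of all genes. In fatty acid synthesis under SREBP1, 2 of 12 fell, Pnpla3, a lipid droplet protein (difference -1.80 ± 0.39), and Scd1, the stearoyl-CoA desaturase (-0.42 ± 0.11), and 1 rose, Thrsp (0.93 ± 0.13).

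Other measurements moved with the genotypes. Of 16 clock genes 11 rose and 4 fell, against 4.46% and 5.77% of all genes. Dbp, a clock output factor, lay between 5.99 and 7.09 in WT and between 9.05 and 10.17 in Ppara KO. Synthesis of cholesterol follows the time of day in mouse liver, and the part of the clock genes in these results was not tested. Dbp was at 10.17 and 9.70 in Ppara KO 1 and 4. In Ppara KO 2, 3, 5 and 6 it was at 9.05, 9.98, 9.98 and 10.10. Ppara itself differed by 0.03 (adjusted p 0.882), and since no source used here places its probes relative to the disrupted part, this checks nothing.

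Of 8 hepatocyte markers limma called 0 (0 also at an unadjusted p under 0.05), with a mean log2 value per animal between 10.88 and 11.02 in WT and between 10.81 and 11.00 in Ppara KO. Of 8 adipocyte markers 3 fell (7 at an unadjusted p under 0.05), with means of 4.68 to 6.35 and 4.47 to 4.76. Of 5 cycling cell markers 3 fell (4 at an unadjusted p under 0.05), with means of 4.53 to 5.56 and 3.88 to 4.28. Over all genes 5.77% were called lower and 4.46% higher. At an unadjusted p under 0.05 these shares were 11.7% and 11.2%. Other markers called were Krt19 and Sox9 of 5 cholangiocyte genes, which fell, and Cd5l of 8 macrophage genes and Cd8a of 6 lymphocyte genes, which rose. The part of these cell types in the results was not tested. The adipocyte means were highest in WT 1, 3 and 5 and the cycling means in WT 1, 2 and 3. Without WT 1, 3 and 5 the 26 genes had 4 falls (Mvd, Tm7sf2, Srebf2 and Insig2) and 0 rises, while calls over all genes dropped to 1008, and without WT 1, 2 and 3 they had 4 falls (Mvd, Fdps, Srebf2 and Insig2) and 0 rises, with 882 calls over all genes. In whole liver, fewer cells of a type and less RNA per cell cannot be told apart.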

How the data were processed

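RNA from 12 livers was hybridised to 1 Affymetrix MoGene 2.0 ST array each. The authors deposited log2 values of 41345 transcript clusters made with RMA and Partek (per the submitters' processing notes, no version given). RMA brings arrays to a common distribution (array medians 4.13 to 4.17), so a change shared by most genes is not visible, and it compresses the differences of dim genes. The number of arrays limits the precision, with a median SE of a log2 difference of 0.093. Of these clusters 23521 carried 1 symbol in the platform annotation, and the brightest cluster of each gene, by its mean in the 12 animals, was used, which left 22180 genes. Entrez identifiers of the clusters with 1 symbol were looked up in RefSeq GRCm38.p6 and found for 23328 clusters, and 0 symbols changed.

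Genotypes were compared gene by gene with limma 3.58.1 under R 4.3.3 (lmFit and eBayes, 2-sided, no covariate), with Benjamini-Hochberg adjustment over the 22180 genes, and the fit was tested on simulated data. All measured members were named, with those further pathway genes that were called and some of the brightest uncalled ones. The members and lists were chosen with earlier results of these data known. Alternatives covered the variance prior, array weights, normalization, filters, clusters, thresholds, pairing and subsets of animals, those without 3 WT animals being chosen after the data were seen.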

Additional observations from a re-analysis of the deposited data

Results flagged for a closer look

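For Ggps1, Ppara KO 5 was at 6.12, the nearest of the other 5 knockout animals at 6.40, a gap of 0.679 of the range of that group. It was the only value among the 52 groups of 6 animals tested (26 genes in 2 genotypes) that stood so far from the others by Dixon's criterion, which chance alone passes in about 1 in 20 groups. Without this animal the difference of Ggps1 was 0.0088 in place of -0.048, and neither value was called.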

How the results depend on the processing

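The 10 called genes kept their direction under all 25 alternatives, in 250 values of which 36 missed the threshold. The count of falls, 9, became 3 at an adjusted p under 0.01, 1 (Insig2) with treat against a 1.2-fold change, 4 without WT 1, 3 and 5, 4 without WT 1, 2 and 3, and 8 to 11 with single animals left out. The count of rises, 1, became 3 with an intensity trend in the variance prior, 3 over the brighter genes only (mean at or above the median), 2 with the mean of the clusters, 0 at an adjusted p under 0.01, 0 with treat, 0 without either set of 3 WT animals, and 1 to 3 with single animals left out. The 4 uncalled genes that passed under some alternative were Hmgcs1, Fdft1, Npc1 and Stard4. Calls over all genes, 2268, became 1070 at an adjusted p under 0.01, 329 with treat, 1008 without WT 1, 3 and 5 and 882 without WT 1, 2 and 3, and 1817 to 2130 with single animals left out. A stricter threshold lowers these counts by construction. Leaving out 3 WT animals lowers the number of animals and also removes those with the highest adipocyte or cycling cell markers, and the cause of these and the other changes was not tested.

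The labels do not say whether same-numbered animals were paired, and the main fit used no pairing. The deviations of same-numbered animals correlated at -0.05 to 0.04, and 1 of 6 WT animals correlated best with its own number. With the replicate number as a block the 26 genes had 8 falls, without Tm7sf2, and 2 rises, with Npc1. Signs changed for uncalled genes only. Insig1 was at -0.015 with quantile normalization, at -0.072 without WT 1, 3 and 5 and at -0.16 without WT 1, 2 and 3, Msmo1 at -0.065 and -0.098 and Lbr at 0.032 without WT 1, 3 and 5. With single animals left out, Insig1 ran from -0.075 to 0.068, Msmo1 from -0.061 to 0.13, Cyp51 from -0.11 to 0.012, Ggps1 from -0.091 to 0.0088 and Sqle from -0.11 to 0.021.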
